A study of Mus musculus with 9 samples.

Results

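The 10 genes that set the pace of the G1 phase were followed in mouse regulatory T cells (Tregs) given an engineered IL-2, WT IL-2 or no IL-2: the D cyclins Ccnd2 and Ccnd3, the E cyclins Ccne1 and Ccne2, the kinases Cdk4 and Cdk6, and the CDK inhibitors Cdkn1a (p21), Cdkn1b (p27), Cdkn2c (p18) and Cdkn2d (p19). They were chosen by symbol, with earlier results of these data known, and all 10 were found among the 23992 gene symbols of the deposited tables. Tregs are CD4+ T cells that restrain immune responses, and the cells came from BALB/c mice whose Foxp3-expressing cells carry GFP. All 3 groups had been transduced with the ortho IL-2Rβ, an engineered receptor chain tagged with a piece of human EGFR, and the labels mention no deletion of the native chain. Per the treatment label, cells of every group spent 48 hours on CD3/CD28 beads with human IL-2 at 1000 IU/mL, were isolated magnetically by the tag, and passed a night without IL-2. The ortho IL-2 group then received 2000000 IU/mL of ortho IL-2, the WT IL-2 group 20000 IU/mL of WT IL-2 and the no IL-2 group 0 IU/mL, each for 4 hours, with 3 libraries per group. The growth label describes a different, co-culture assay, and the promoter that drives the receptor is not given in the sources used here. Whether libraries of 1 group are separate animals or cultures is not stated, so the p-values measure only a spread between samples that may be technical.

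In G1, D cyclins bind CDK4 and CDK6, and E cyclins bind CDK2, to phosphorylate the retinoblastoma protein and free E2F transcription factors for S phase entry. INK4 inhibitors, here Cdkn2c and Cdkn2d, block CDK4 and CDK6, whereas CIP/KIP inhibitors, here Cdkn1a and Cdkn1b, bind several cyclin-CDK complexes and also help to assemble those with D cyclins. In T cells, IL-2 acts through STAT5, PI3K and MYC, is known to raise D cyclins and to lower p27, and so carries activated cells through G1.

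mRNA was sequenced, and levels are given as TMM-scaled RPKM, which is reads scaled by transcript length and by the TMM-corrected number of reads in genes. Levels can thus be set side by side between libraries, and between genes only approximately. Each level rests on the length of 1 transcript, which for Cdk6 was 2470 bases beside 13989 annotated exon bases. A gene was called higher or lower where edgeR's quasi-likelihood test gave a Benjamini-Hochberg adjusted p under 0.05 over the 10702 genes tested, and all 10 regulators were among these. The libraries held 16581628 to 58182823 reads in genes. The share of reads outside genes, a measure of the library rather than of any member, was 29.4 ± 3.64% with ortho IL-2, 31.7 ± 2.96% with WT IL-2 and 40.5 ± 2.43% without IL-2 (SD, n = 3 each; stimulated against no IL-2, two-sided exact permutation p = 0.0238). Ortho IL-2 replicate 3 and WT IL-2 replicate 1 stood apart from their group, with a reduced chi-square of 24.5 and 24.7 against the other ortho libraries and of 36.9 and 30.3 against the other WT libraries, where the other replicate pairs ranged from 5.10 to 7.85. This measure uses read counts and grows with depth, and ortho IL-2 replicate 3 was the deepest library (58182823 reads in genes). The 11 T cell and Treg markers were all tested and summed to 3694 to 3752 TMM-scaled RPKM in ortho IL-2 libraries, 3628 to 3747 in WT IL-2 libraries and 2917 to 2977 in no IL-2 libraries. Among all genes tested, 28.5% were called higher and 27.4% lower with ortho IL-2, and 25.0% and 22.9% with WT IL-2. Of the 11 T cell and Treg markers, 3 were called higher and 6 lower with each cytokine, with median log2 changes of -0.14 with ortho IL-2 and -0.18 with WT IL-2. The higher ones include Il2ra (1094 with ortho IL-2, 1128 with WT IL-2, 275 without IL-2) and Tnfrsf18 (557, 514 and 242), and the lower ones include Cd4 (150.2, 147 and 212). Markers of B cells summed to 2.99 to 3.89 over all libraries and those of myeloid cells to 3.05 to 4.41, with 1 of 8 and 1 of 10 passing the filter on low values. Markers of CD8 T and NK cells summed to 15.4 to 16.6 in ortho IL-2, 14.2 to 17.5 in WT IL-2 and 11.4 to 11.7 in no IL-2 libraries, with 2 of 8 passing the filter. Erythroid and stromal markers summed to 72.7 to 75.6 in ortho IL-2, 74.1 to 76.1 in WT IL-2 and 85.7 to 89.4 in no IL-2 libraries, with 2 of 10 passing. Most of that sum was the single gene Pecam1, which averaged 66.5 with ortho IL-2, 66.6 with WT IL-2 and 85.9 without IL-2. Epcam, the other that passed, averaged 6.79, 7.46 and 1.34 in the same order. Of the markers of other cells, Gzma and Epcam were called higher with each cytokine (2.37-fold and 4.94-fold with ortho IL-2, 2.42-fold and 5.43-fold with WT IL-2), and Itgam and Pecam1 lower. None of these markers was at 0 in all libraries, and the part of other cells in the results below was not tested. In bulk RNA, fewer cells of a type and less RNA per cell cannot be told apart.

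RefSeq promoter windows of GRCm38.p6, from 250 bases before to 50 bases after a start site, were at hand for 8 of the 10 genes, in 11 windows of 300 bases. Ccnd2 and Ccne2 had no window, so the 11 windows do not cover them. They were searched on both strands for CACGTG (the E-box bound by MYC and its relatives), GTAAACA (FOXO), TTCNNNGAA (the GAS element of STAT factors) and TTTCCCGC or TTTGGCGC (E2F), since these factors lie between IL-2 and G1. The windows shown are those of 3 genes, with the matches in capitals: CACGTG in Cdk4 and Cdk6, the kinases of the D cyclins, and TGTTTAC, which is GTAAACA on the other strand, in the upstream one of 2 Ccnd3 windows. They lie on the plus strand at chr10:127063285-127063584 (Cdk4), chr5:3343643-3343942 (Cdk6) and chr17:47504801-47505100 (Ccnd3), and no match overlaps another.
Cdk4: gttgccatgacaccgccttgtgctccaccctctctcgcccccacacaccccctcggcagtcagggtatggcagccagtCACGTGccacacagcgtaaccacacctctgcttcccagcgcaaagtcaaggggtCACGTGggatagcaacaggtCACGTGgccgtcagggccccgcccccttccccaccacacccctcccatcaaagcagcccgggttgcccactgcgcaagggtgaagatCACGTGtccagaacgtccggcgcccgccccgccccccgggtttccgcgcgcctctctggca
Cdk6: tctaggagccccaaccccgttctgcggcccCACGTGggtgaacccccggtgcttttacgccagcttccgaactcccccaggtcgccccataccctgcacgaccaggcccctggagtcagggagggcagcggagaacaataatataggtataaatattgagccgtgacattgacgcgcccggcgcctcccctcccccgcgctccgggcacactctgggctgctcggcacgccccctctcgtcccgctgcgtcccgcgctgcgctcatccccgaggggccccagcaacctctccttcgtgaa
Ccnd3: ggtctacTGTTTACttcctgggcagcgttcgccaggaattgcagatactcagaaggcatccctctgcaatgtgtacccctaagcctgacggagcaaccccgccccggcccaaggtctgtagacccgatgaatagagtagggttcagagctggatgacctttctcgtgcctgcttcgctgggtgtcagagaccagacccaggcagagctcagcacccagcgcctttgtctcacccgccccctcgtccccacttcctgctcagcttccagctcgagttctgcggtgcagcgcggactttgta
The Cdk4 window holds 4 copies of CACGTG, starting at positions -172, -118, -98 and -11 from the start site. At least 1 copy is found in 7.15% of the 32851 promoter windows of the table, and 4 or more copies in 8 windows (0.0244%). The Cdk6 window holds 1 copy at position -220, and 1 of the 2 Cdkn2c windows holds 1 at position 34. The FOXO letters occur in 3.65% of all windows and, among the members with a window, at position -243 of the upstream Ccnd3 window alone. The GAS letters (8.30% of windows) and the E2F letters (1.56%) occur in none of the 11, and Ccnd2 and Ccne2 were not searched. These matches are descriptions of sequence, not of binding.

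With ortho IL-2 against no IL-2, 7 of the 10 regulators were called higher, where 28.5% of all genes tested were, and 3 were called lower, where 27.4% were. With WT IL-2 against no IL-2, the same 7 were called higher, where 25.0% of genes were, and 2 were called lower, where 22.9% were. Both comparisons share the no IL-2 libraries. The higher genes were both D cyclins, Ccne1, Cdk4, Cdk6, Cdkn1a and Cdkn2d. The lower genes were Ccne2 and Cdkn1b in both, and Cdkn2c with ortho IL-2. In either direction, all 10 were called with ortho IL-2 (56.0% of genes) and 9 with WT IL-2 (47.9%). In every member the stimulated and no IL-2 groups did not overlap, which held for 66.1% of all genes with ortho IL-2 (33.9% higher, 32.2% lower) and 58.8% with WT IL-2 (30.3% higher, 28.5% lower). Calls in some direction were thus frequent among all genes, and the size of the change set 3 members apart: Ccnd2, Ccnd3 and Cdk6 were at least 2-fold higher with each cytokine, which 3.83% of genes were with ortho IL-2 and 3.49% with WT IL-2. The median log2 fold change of the members was 0.42 with ortho IL-2 and 0.35 with WT IL-2, beside 0.01 in each over all genes tested. Of the genes called, 51.0% were higher with ortho IL-2 and 52.2% with WT IL-2. Where libraries were scaled by the authors' RPKM divisor, these shares of the called genes were 85.8% and 83.8%. Under that scaling 7 members were called higher and 1 lower with each cytokine. Over all 10702 genes it called 5706 higher and 946 lower with ortho IL-2, and 4630 and 895 with WT IL-2.

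**Figure D1:**
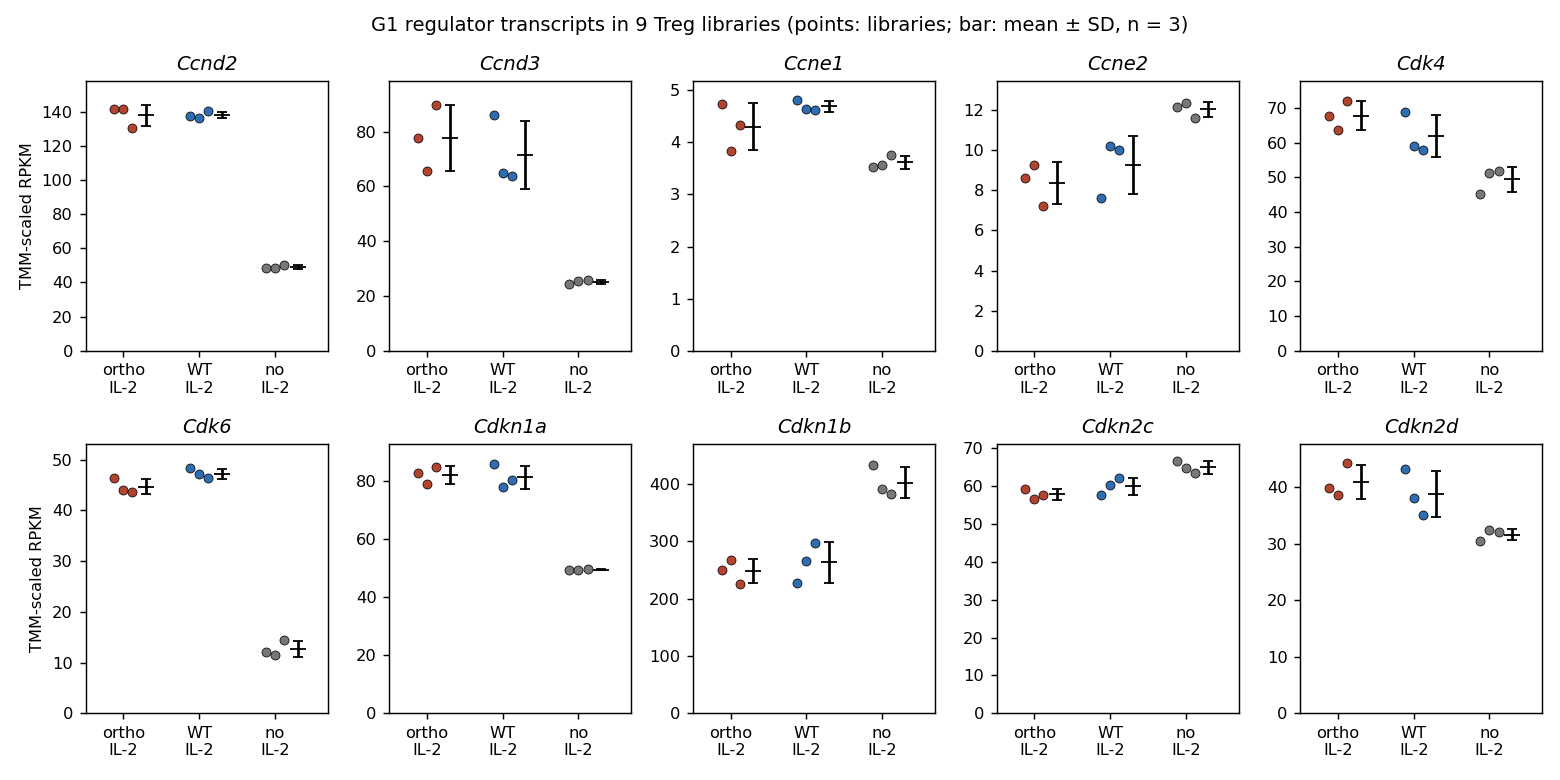
TMM-scaled RPKM of each G1 regulator on linear axes that start at 0, with 1 point per library and the mean ± SD (n = 3) beside the points. Ccnd2, Ccnd3 and Cdk6 lie far above their no IL-2 libraries with either cytokine, Cdkn1b and Ccne2 lie below, and the ortho IL-2 and WT IL-2 points overlap in all 10 genes.

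Ccnd2 and Ccnd3, the D cyclins that T cells use, rose together and by similar factors. Ccnd2 (chromosome 6, 127125162 to 127152193, minus strand, GRCm38) stood at 142, 142 and 131 TMM-scaled RPKM in ortho IL-2, 138, 137 and 140.3 in WT IL-2, and 48.3, 48.5 and 50.5 in no IL-2 libraries. Every stimulated library lay above every no IL-2 library, and the stimulated groups overlapped. Ccnd2 was 2.81-fold higher with ortho IL-2 (log2 1.49 ± 0.05 SE, edgeR adjusted p = 1.18e-08) and 2.82-fold higher with WT IL-2 (log2 1.49 ± 0.05 SE, edgeR adjusted p = 1.08e-08). Ccnd3 (chromosome 17, 47505051 to 47599691, plus strand) stood at 77.8, 65.7 and 89.7 in ortho IL-2, 86.0, 65.0 and 63.8 in WT IL-2, and 24.3, 25.3 and 25.8 in no IL-2 libraries. Its stimulated levels were the more scattered of the D cyclins, and the highest values were those of ortho IL-2 replicate 3 and WT IL-2 replicate 1, the libraries that stand apart. Ccnd3 was 3.10-fold higher with ortho IL-2 (log2 1.63 ± 0.13 SE, edgeR adjusted p = 6.26e-06) and 2.85-fold higher with WT IL-2 (log2 1.51 ± 0.13 SE, edgeR adjusted p = 1.08e-05), and without those 2 libraries the log2 changes were 1.52 and 1.35. Its 3 transcripts in the tables shared nearly all reads, so the start site in use cannot be told from these values. The other D cyclin, Ccnd1, had 3 to 12 reads per library and was not tested.

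Across this gain the proportions of Ccnd2 and Ccnd3 overlapped between the groups. Ccnd2 made up 64.0 ± 4.52% of the summed D cyclin level in ortho IL-2, 66.0 ± 3.88% in WT IL-2 and 66.0 ± 0.387% in no IL-2 libraries, and Ccnd3 made up 35.9 ± 4.52%, 34.0 ± 3.88% and 33.8 ± 0.402% in the same order. The share of Ccnd1, on its few reads, did not overlap, at 0.0160 ± 0.00731% in ortho IL-2, 0.0157 ± 0.000727% in WT IL-2 and 0.159 ± 0.0464% in no IL-2 libraries. The sum itself was 216 ± 7.22 TMM-scaled RPKM with ortho IL-2, 209.9 ± 12.2 with WT IL-2 and 74.4 ± 1.94 without IL-2 (SD, n = 3 each).

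Of their kinase partners, Cdk6 rose strongly and Cdk4 slightly. Cdk6 (chromosome 5, 3341485 to 3531008, plus strand) stood at 46.4, 44.1 and 43.6 TMM-scaled RPKM in ortho IL-2, 48.3, 47.2 and 46.3 in WT IL-2, and 12.1, 11.5 and 14.5 in no IL-2 libraries. The stimulated libraries form a narrow band well above the no IL-2 libraries. Cdk6 was 3.53-fold higher with ortho IL-2 (log2 1.82 ± 0.08 SE, edgeR adjusted p = 6.97e-08) and 3.74-fold higher with WT IL-2 (log2 1.90 ± 0.08 SE, edgeR adjusted p = 5.23e-08). By size of fold change among the 10702 genes, Cdk6 ranked 112 from the top with ortho IL-2 and 97 with WT IL-2, Ccnd3 148 and 176, and Ccnd2 193 and 182. Cdk4 (chromosome 10, 127063534 to 127067920, plus strand) stood at 67.6, 63.7 and 72.1 in ortho IL-2, 68.9, 59.2 and 58.0 in WT IL-2, and 45.3, 51.3 and 51.8 in no IL-2 libraries, with no overlap between stimulated and no IL-2 libraries. It was 1.37-fold higher with ortho IL-2 (log2 0.46 ± 0.08 SE, edgeR adjusted p = 0.00114) and 1.25-fold higher with WT IL-2 (log2 0.33 ± 0.08 SE, edgeR adjusted p = 0.00834). Its window, shown above, is the one with 4 E-box words, and that of Cdk6 has 1. With the outside-gene share as a covariate, the Cdk4 calls ended (log2 0.24, edgeR adjusted p = 0.36 with ortho IL-2; log2 0.16, edgeR adjusted p = 0.462 with WT IL-2).

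The E cyclins, which activate CDK2 late in G1, moved in opposite directions and had the lowest group means of the 10, though in no IL-2 libraries Cdk6 (11.5 to 14.5) overlapped Ccne2 (11.6 to 12.3). Ccne1 (chromosome 7, 38097984 to 38107534, minus strand) stood at 4.74, 3.84 and 4.33 TMM-scaled RPKM in ortho IL-2, 4.82, 4.64 and 4.63 in WT IL-2, and 3.52, 3.57 and 3.75 in no IL-2 libraries, on 120 to 504 reads per library. The groups did not overlap, but ortho IL-2 replicate 2 lay close to the no IL-2 libraries. Ccne1 was 1.20-fold higher with ortho IL-2 (log2 0.26 ± 0.09 SE, edgeR adjusted p = 0.0394) and 1.30-fold higher with WT IL-2 (log2 0.38 ± 0.09 SE, edgeR adjusted p = 0.00796). The ortho IL-2 call ended in 12 of 20 alternatives, among them each of 5 in which 1 library was left out: without ortho IL-2 replicate 1 (log2 0.19) or 3 (0.26), or without no IL-2 replicate 1 (0.24), 2 (0.25) or 3 (0.28). The WT IL-2 call ended only, of 20, with the outside-gene share as a covariate (log2 0.43, edgeR adjusted p = 0.115). Ccne2 (chromosome 4, 11191351 to 11204779, plus strand) stood at 8.61, 9.27 and 7.23 in ortho IL-2, 7.61, 10.2 and 10.02 in WT IL-2, and 12.2, 12.3 and 11.6 in no IL-2 libraries. All stimulated libraries lay below all no IL-2 libraries, the lowest being the pair that stands apart. Ccne2 was 1.45-fold lower with ortho IL-2 (log2 -0.53 ± 0.12 SE, edgeR adjusted p = 0.00454) and 1.30-fold lower with WT IL-2 (log2 -0.38 ± 0.12 SE, edgeR adjusted p = 0.0261). The WT IL-2 call ended without WT IL-2 replicate 1 (log2 -0.25, edgeR adjusted p = 0.0535), without no IL-2 replicate 1 (log2 -0.37) and without no IL-2 replicate 2 (log2 -0.36). Both Ccne2 calls ended with that covariate (log2 -0.32 with ortho IL-2, -0.21 with WT IL-2). They also ended under offsets for GC content and length (log2 -0.10 and -0.09, ortho before WT) and under scaling by the authors' RPKM divisor (log2 -0.26 and -0.17).

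The CIP/KIP inhibitors also moved apart, Cdkn1a upward and Cdkn1b downward. Cdkn1a, which encodes p21, a target of p53 that is also induced by mitogens (chromosome 17, 29090976 to 29100727, plus strand), stood at 82.6, 78.9 and 84.7 TMM-scaled RPKM in ortho IL-2, 85.8, 77.8 and 80.2 in WT IL-2, and 49.5, 49.3 and 49.7 in no IL-2 libraries. No stimulated library came near the no IL-2 libraries, whose SD was 0.220. Cdkn1a was 1.66-fold higher with ortho IL-2 (log2 0.73 ± 0.05 SE, edgeR adjusted p = 1.36e-06) and 1.64-fold higher with WT IL-2 (log2 0.72 ± 0.05 SE, edgeR adjusted p = 1.58e-06). Cdkn1b, which encodes p27, the inhibitor associated with resting T cells (chromosome 6, 134920401 to 134925513, plus strand), stood at 249.8, 267 and 225 in ortho IL-2, 227, 265 and 297 in WT IL-2, and 433.1, 390.5 and 383 in no IL-2 libraries. It was the most abundant of the 10 in all groups, and its stimulated libraries lay below all no IL-2 libraries. Cdkn1b was 1.63-fold lower with ortho IL-2 (log2 -0.70 ± 0.10 SE, edgeR adjusted p = 0.000253) and 1.53-fold lower with WT IL-2 (log2 -0.61 ± 0.10 SE, edgeR adjusted p = 0.000653). With the outside-gene share as a covariate, both Cdkn1b calls ended (log2 -0.37, edgeR adjusted p = 0.2 with ortho IL-2; log2 -0.35, edgeR adjusted p = 0.124 with WT IL-2). The other CIP/KIP gene, Cdkn1c (p57), had 35 to 86 reads per library and was not tested.

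The INK4 inhibitors showed small differences. Cdkn2c (chromosome 4, 109660876 to 109667189, minus strand) stood at 59.2, 56.4 and 57.7 TMM-scaled RPKM in ortho IL-2, 57.4, 60.3 and 61.9 in WT IL-2, and 66.5, 64.6 and 63.4 in no IL-2 libraries. The gap between WT IL-2 replicate 3 and no IL-2 replicate 3 was small. Cdkn2c was 1.12-fold lower with ortho IL-2 (log2 -0.17 ± 0.05 SE, edgeR adjusted p = 0.0128), and with WT IL-2 its log2 difference of -0.12 ± 0.05 SE was not called (edgeR adjusted p = 0.0644), though 5 of 20 alternatives called it lower, DESeq2 among them (adjusted p = 0.0429). The ortho IL-2 call ended without no IL-2 replicate 1 (log2 -0.15, edgeR adjusted p = 0.0573), with no filter on low values (log2 -0.09) and with the covariate (log2 -0.08). Its direction turned, uncalled, when libraries were scaled by the authors' RPKM divisor (log2 0.11 with ortho IL-2, 0.10 with WT IL-2), a scaling that moved the median of all genes to 0.29 and 0.22. Cdkn2d (chromosome 9, 21288410 to 21291407, minus strand) stood at 39.9, 38.6 and 44.3 in ortho IL-2, 43.2, 38.0 and 35.1 in WT IL-2, and 30.4, 32.3 and 32.1 in no IL-2 libraries, again without overlap of stimulated and no IL-2 libraries. It was 1.30-fold higher with ortho IL-2 (log2 0.37 ± 0.08 SE, edgeR adjusted p = 0.00368) and 1.23-fold higher with WT IL-2 (log2 0.30 ± 0.08 SE, edgeR adjusted p = 0.014). Both Cdkn2d calls ended with GC and length offsets (log2 0.09 with each cytokine) and with the covariate (log2 0.12 with ortho IL-2, 0.09 with WT IL-2), and the WT IL-2 call ended without no IL-2 replicate 1 (log2 0.27, edgeR adjusted p = 0.0586). The remaining INK4 genes were low: Cdkn2a averaged 3.29 ± 0.302 with ortho IL-2, 2.73 ± 0.537 with WT IL-2 and 1.47 ± 0.594 without IL-2 and was called higher in both comparisons (edgeR adjusted p = 0.00434 and 0.0227), and Cdkn2b, with 7 to 82 reads, was not tested.

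**Figure D2:**
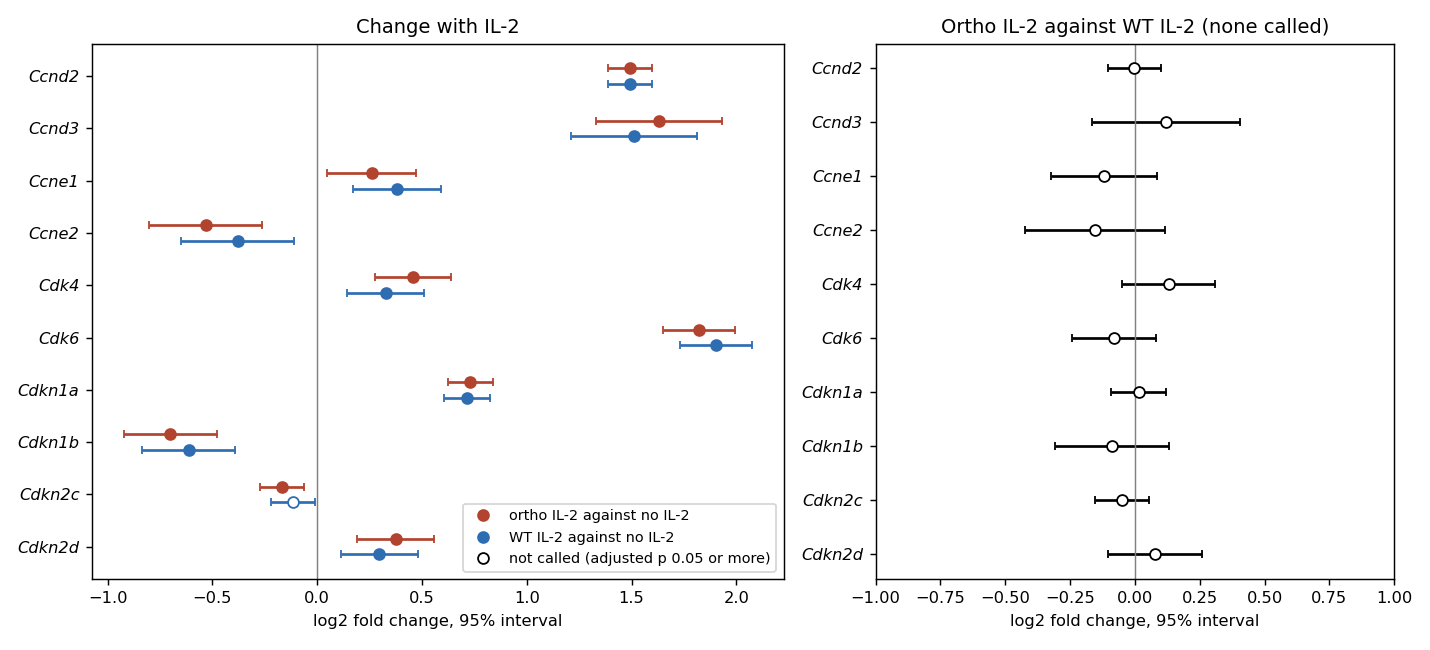
Log2 fold changes with 95% intervals for the 10 regulators, with ortho IL-2 and WT IL-2 against no IL-2 on the left and ortho IL-2 against WT IL-2 on the right; filled points passed the test and open points did not. Cdk6, Ccnd3 and Ccnd2 lie between 1.49 and 1.90 on the left, and all 10 intervals on the right span 0.

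Calls of Ccnd2, Ccnd3, Cdk6 and Cdkn1a held in all 20 alternatives run for each comparison with no IL-2. Over those alternatives their lowest log2 changes were 1.47 (Ccnd2), 1.30 (Ccnd3), 1.75 (Cdk6) and 0.53 (Cdkn1a) with ortho IL-2, and 1.48, 1.27, 1.84 and 0.56 in the same gene order with WT IL-2. Without the 2 libraries that stand apart, 6 members rose and 3 fell with ortho IL-2, and 7 rose and 2 fell with WT IL-2, and the call that ended was that of Ccne1 with ortho IL-2 (log2 0.26, edgeR adjusted p = 0.0659). Over all 10702 genes, 3239 rose and 3075 fell with ortho IL-2 without those 2 libraries, and 2910 and 2818 with WT IL-2. With the outside-gene share as a covariate, Ccnd2, Ccnd3, Cdk6 and Cdkn1a were the members still called higher in both comparisons, and 0 were called lower. Over all genes the covariate left 925 higher and 647 lower with ortho IL-2, and 1217 and 911 with WT IL-2.

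**Figure D3:**
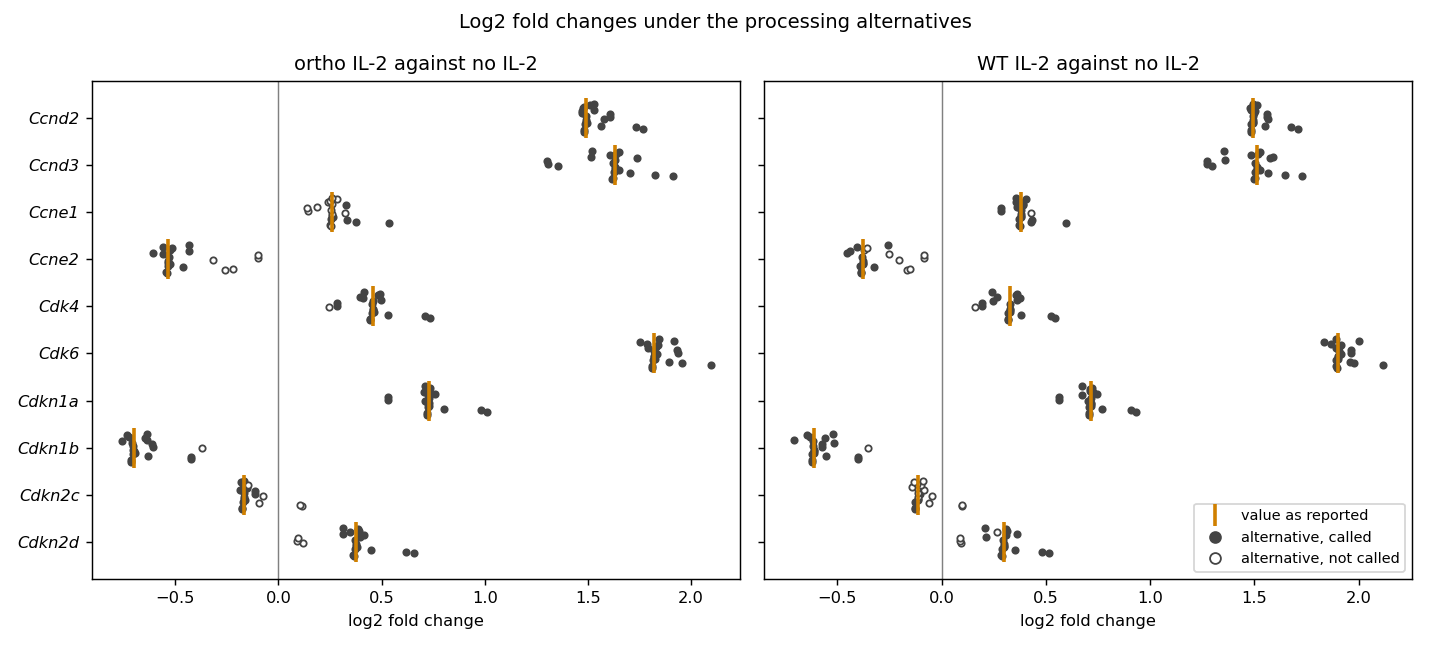
Each dark point is the log2 fold change of a regulator under 1 processing alternative, filled where it was called, and the orange bar is the value as reported. Ccnd2, Ccnd3, Cdk6 and Cdkn1a show filled points alone, and the points of Cdkn2c reach across 0.

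Ortho IL-2 against WT IL-2, which compares the cytokines in cells that all carry the ortho IL-2Rβ, gave no call among the 10. All 10 members overlapped between the cytokines, where 4.65% of all genes did not (2.41% higher and 2.24% lower with ortho IL-2). The log2 differences ran from -0.15 (Ccne2) to 0.13 (Cdk4), with edgeR adjusted p between 0.909 and 0.988, and the smallest unadjusted p was 0.139 (Cdk4, edgeR). Over all 10702 genes 0 were called by edgeR, DESeq2 or limma (0% of genes), and 149 had an unadjusted p under 0.05 by edgeR. Those 149 are a smaller share of the genes than 0.05, the share that evenly spread p-values would give. The 95% interval of the log2 difference was -0.11 to 0.10 for Ccnd2, -0.24 to 0.08 for Cdk6, -0.09 to 0.12 for Cdkn1a and -0.15 to 0.05 for Cdkn2c. It was wider for Ccnd3 (-0.17 to 0.41), Ccne2 (-0.42 to 0.12), Ccne1 (-0.32 to 0.08), Cdkn1b (-0.31 to 0.13), Cdk4 (-0.05 to 0.31) and Cdkn2d (-0.10 to 0.26). Differences inside these intervals are compatible with the values at this depth and with 3 libraries per group. The lack of a call therefore does not show equal levels. The cytokines were given at different doses, 2000000 IU/mL of ortho IL-2 and 20000 IU/mL of WT IL-2, so this comparison is not one of matched doses. With no untransduced cells among the groups, signals through the ortho and the native receptor chain cannot be told apart.

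Ratios between members of 1 library do not depend on the factor by which a library is scaled, and they are given as descriptions without a test. A ratio of a gene that rose over a gene that fell restates both changes. Effects that differ between genes, such as those of GC content and length, do not cancel in a ratio. The calls of Ccne2 and Cdkn2d ended under offsets for these, and the ratios were not recomputed with them. The sum of Ccnd2 and Ccnd3 over the sum of Cdkn1a and Cdkn1b, D cyclins against CIP/KIP inhibitors, was 0.660, 0.599 and 0.710 in ortho IL-2, 0.716, 0.588 and 0.541 in WT IL-2, and 0.150, 0.168 and 0.176 in no IL-2 libraries. Every stimulated library was thus far above every no IL-2 library. Cdk6 over Cdk4 averaged 0.661 ± 0.0487 with ortho IL-2, 0.766 ± 0.0566 with WT IL-2 and 0.257 ± 0.0292 without IL-2, so that Cdk6 made up 39.7 ± 1.80%, 43.3 ± 1.85% and 20.4 ± 1.87% of the summed level of both kinases in the same order. Cdkn1a over Cdkn1b averaged 0.334 ± 0.0403 with ortho IL-2, 0.314 ± 0.0571 with WT IL-2 and 0.123 ± 0.00815 without IL-2. Summed levels, unlike ratios, do depend on the scaling. With TMM scaling the summed CIP/KIP level was 330.4 ± 18.1 with ortho IL-2, 345 ± 32.6 with WT IL-2 and 453 ± 27.0 without IL-2. The summed INK4 level was then close in all groups, at 103 ± 3.80, 102 ± 1.81 and 98.2 ± 1.49. Scaled by the authors' RPKM divisor, Cdkn2c had log2 changes of 0.11 with ortho IL-2 and 0.10 with WT IL-2, and Cdkn2d of 0.66 and 0.51. Ccne1 over Ccne2 averaged 0.522 ± 0.0958 in ortho IL-2, 0.517 ± 0.101 in WT IL-2 and 0.301 ± 0.0199 in no IL-2 libraries. Cdkn2d over Cdkn2c averaged 0.708 ± 0.0520, 0.650 ± 0.0940 and 0.488 ± 0.0268 in the same order. Ccnd3 over Ccnd2 averaged 0.567 ± 0.112, 0.518 ± 0.0921 and 0.513 ± 0.00908 in that order, with overlap between the groups.

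**Figure D4:**
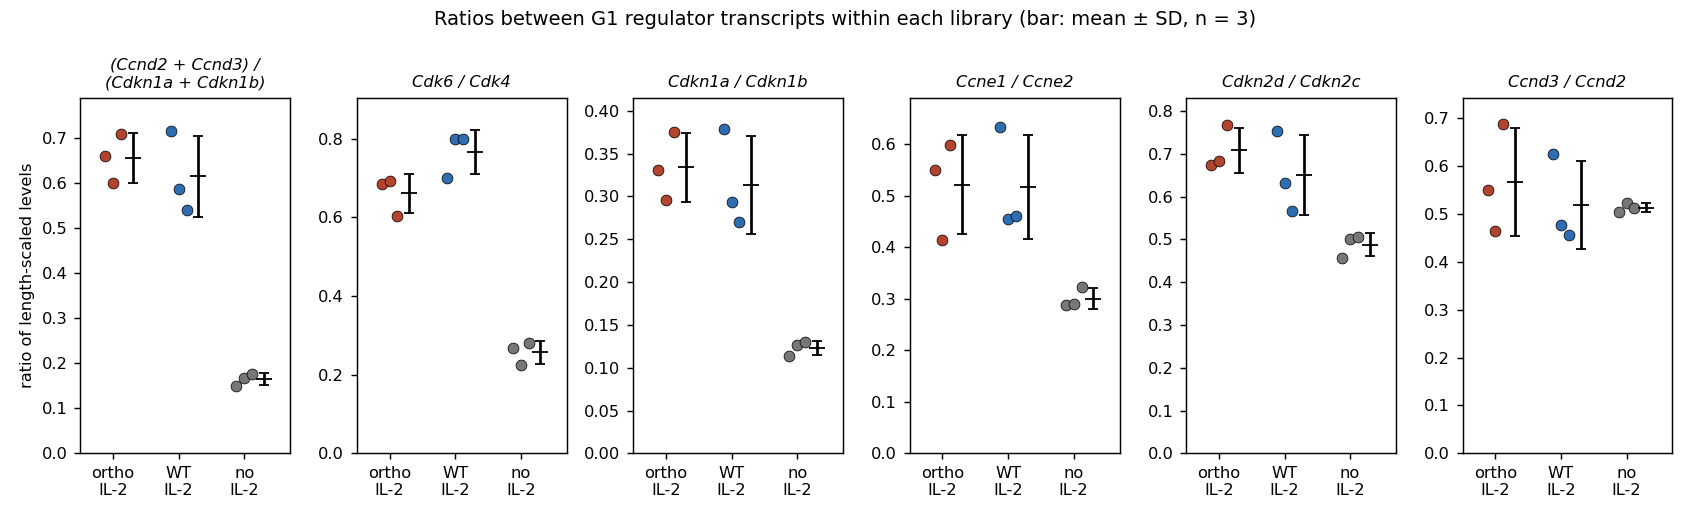
Ratios of levels between regulators within each library, with 1 point per library and the mean ± SD (n = 3). In 5 of the 6 ratios the no IL-2 libraries lie below all stimulated libraries, and in Ccnd3 over Ccnd2 the groups overlap. For Cdkn1a over Cdkn1b, Ccne1 over Ccne2 and Cdkn2d over Cdkn2c this separation follows from the levels themselves. There the first gene was higher and the second lower in all stimulated libraries.

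The order of the levels differed between the groups. Without IL-2, Cdkn1b (402 ± 27.0 TMM-scaled RPKM) was followed by Cdkn2c (64.8 ± 1.61), then by Cdk4, Cdkn1a and Ccnd2, which averaged 49.5, 49.5 and 49.1 and did not differ beyond their spread. Below them came Cdkn2d (31.6), Ccnd3 (25.2), and Cdk6 (12.7) with Ccne2 (12.04), which overlapped, and last Ccne1 (3.61). With ortho IL-2, Ccnd2 (138 ± 6.34) came after Cdkn1b (247 ± 20.9), and the next were Cdkn1a (82.1), Ccnd3 (77.7) and Cdk4 (67.8), each overlapping its neighbour. Cdkn2c (57.8), then Cdk6 (44.7) and Cdkn2d (40.9), which overlapped, and then Ccne2 (8.37) and Ccne1 (4.30) closed that order. With WT IL-2 the order of genes was the same, and there the levels of Cdk4 (62.0 ± 6.003) and Cdkn2c (59.9 ± 2.26) also overlapped while Cdk6 (47.3 ± 0.982) and Cdkn2d (38.8 ± 4.10) did not. As a percentile among all genes tested, Ccnd2 stood at 96.1 with ortho IL-2, 96.1 with WT IL-2 and 84.9 without IL-2, and Cdk6 at 83.4, 84.4 and 48.3.

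Parts of some members lie over genes of the opposite strand, and since the use of strand is not given in the sources used here, their reads cannot be told apart there. In GENCODE M21 exons, 19.7% of Cdk4 exon bases overlap Tspan31, 17.4% of those of Ccne2 overlap Ints8, and 4.11% of those of Ccnd3 overlap Bysl. Overlaps with antisense or provisional genes took 7.86% of Ccnd2, 7.68% of Cdkn1a and 2.63% of Cdk6 exon bases, and the remaining 4 members had none. These shares are of all annotated exon bases of a gene, 3249 for Cdk4, 3495 for Ccne2 and 8775 for Ccnd3. Reads were counted on single transcripts, of 1346, 3113 and 2118 bases in that order. The overlapping share of the counted sequence was not measured. Bysl, a ribosome biogenesis factor, was 3.74-fold higher with ortho IL-2 and 3.80-fold higher with WT IL-2 (edgeR adjusted p = 3.71e-06 and 3.41e-06), at levels of 3.90, 3.96 and 1.04 TMM-scaled RPKM with ortho, WT and no IL-2. Tspan31 and Ints8 were not called in either comparison (log2 0.08 and 0.05 for Tspan31, -0.00 and 0.06 for Ints8, ortho before WT).

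Other genes of the same pathway were taken from lists by known role, and Ccng1, Ccng2, Gadd45a, Rbl2 and Sesn1 each stand in 2 of them. Over all genes tested, 28.5% were called higher and 27.4% lower with ortho IL-2, and 25.0% and 22.9% with WT IL-2. The counts of each list, here and in the next paragraphs, stand beside those shares. Of 17 other cyclins tested, 0 rose and 6 fell with ortho IL-2, and 0 rose and 5 fell with WT IL-2, with list medians of -0.09 and -0.11. Ccni and Ccng2, a cyclin that FOXO factors induce, were lower: Ccni averaged 125 with ortho IL-2, 130.4 with WT IL-2 and 181 without IL-2 (edgeR adjusted p = 0.000154 and 0.000363), and Ccng2 202, 206 and 258 (edgeR adjusted p = 0.000496 and 0.000892). Ccng1 (log2 -0.39 and -0.30, edgeR adjusted p = 0.0052 and 0.0203) and Ccnt2 (log2 -0.21 and -0.21, edgeR adjusted p = 0.0144 and 0.0183) fell with each cytokine, ortho before WT. Ccnd2, Ccnd3 and Ccne1 were therefore the cyclins called higher among those tested here. Of 24 other CDKs and CDK activators, 7 rose and 8 fell with ortho IL-2, and 6 rose and 4 fell with WT IL-2. Cdk19, a Mediator kinase, was lower (log2 -0.62 with ortho IL-2, edgeR adjusted p = 2.93e-06; log2 -0.55 with WT IL-2, edgeR adjusted p = 7.29e-06), as was Cdk17 (log2 -0.42 and -0.38). Cks1b, a CDK-binding subunit that also serves p27 degradation, was higher with each (log2 0.31 and 0.27, edgeR adjusted p = 0.00123 and 0.00278, ortho before WT). The phosphatase gene Cdc25b was lower with each (log2 -0.29 and -0.39, edgeR adjusted p = 0.00225 and 0.000388). Cdk2, the partner of the E cyclins, was not called, at 21.3 ± 0.693 with ortho IL-2, 20.8 ± 1.20 with WT IL-2 and 22.2 ± 0.853 without IL-2.

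Among 15 other CDK inhibitors and turnover factors, 4 were higher and 3 lower with either cytokine. The lower ones named by the rule were Usp28, a deubiquitinase of several nuclear proteins (25.3 with ortho IL-2, 24.7 with WT IL-2, 53.7 without IL-2), the F-box gene Fbxo31 (4.62, 4.25 and 10.1) and the ubiquitin ligase scaffold Cul4b (27.3, 28.8 and 39.6). Skp2, which recruits p27 for degradation, was not called (log2 -0.12 with ortho IL-2, -0.10 with WT IL-2). Of 18 pocket protein, E2F and DP genes, 4 rose and 7 fell with ortho IL-2, and 4 rose and 6 fell with WT IL-2. Rb1, the retinoblastoma gene and substrate of the G1 kinases, averaged 41.4 ± 2.97 with ortho IL-2, 44.3 ± 3.98 with WT IL-2 and 69.0 ± 2.16 without IL-2, and was called lower (edgeR adjusted p = 2.4e-05 and 6.35e-05). Rbl2 was slightly lower (log2 -0.14 and -0.12), while Rbl1 and E2f1 were not called. E2f3 and Tfdp1, an activating E2F and its dimer partner, were higher: E2f3 averaged 6.49, 6.88 and 4.14, and Tfdp1 45.0, 45.6 and 30.0 with ortho, WT and no IL-2, whereas Tfdp2 was lower at 9.55, 9.54 and 14.7.

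Of 27 E2F targets of S phase entry, 7 rose and 5 fell with ortho IL-2, and 7 rose and 4 fell with WT IL-2, with list medians of 0.03 and 0.07 beside 0.01 over all genes. The shares of all genes called higher and lower were 28.5% and 27.4% with ortho IL-2, and 25.0% and 22.9% with WT IL-2. The replicative helicase genes Mcm2 and Mcm6 went opposite ways, Mcm2 to 16.7 with ortho IL-2 and 15.7 with WT IL-2, against 12.7 without IL-2, and Mcm6 to 34.8 and 35.4, against 44.6. Uhrf1 was higher with each cytokine (log2 0.30 and 0.29, edgeR adjusted p = 0.00127 and 0.00198, ortho before WT).

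Cdkn1a is a p53 target and Cdkn1b a FOXO target, and neither was counted in the lists of other targets. The p53 list of 20 genes counts Trp53 itself as well as targets. Of these 20, 4 rose and 8 fell with ortho IL-2, and 3 rose and 8 fell with WT IL-2. The list medians were -0.16 and -0.13. Among all genes tested, 28.5% were called higher and 27.4% lower with ortho IL-2, and 25.0% and 22.9% with WT IL-2. Aen, a nuclease gene, was higher (20.3 with ortho IL-2, 19.6 with WT IL-2, 9.58 without IL-2), whereas Sesn1 (40.6, 39.2 and 97.0) and the antiproliferative Btg2 (48.0, 45.5 and 89.8) were lower. Trp53, counted among those that rose, was slightly higher (log2 0.29 and 0.22, edgeR adjusted p = 0.00469 and 0.0209, ortho before WT). The FOXO list of 20 genes likewise counts Foxo1, Foxo3 and Foxo4. Of these 20, 1 rose and 16 fell with ortho IL-2, and 0 rose and 16 fell with WT IL-2. The list medians were -0.68 and -0.64. The 1 that rose was Foxo3 (log2 0.32, edgeR adjusted p = 0.0415), and Foxo1 and Foxo4 were among those that fell. Bcl6, a transcriptional repressor, averaged 6.41 with ortho IL-2, 7.44 with WT IL-2 and 32.9 without IL-2, and Bcl2l11, which encodes the death factor BIM, 36.0, 35.6 and 81.7. Myc, the gene of an E-box binding factor, averaged 55.6 ± 4.24 with ortho IL-2, 56.5 ± 5.80 with WT IL-2 and 10.3 ± 0.753 without IL-2, a 5.40-fold and 5.48-fold rise (edgeR adjusted p = 3.34e-08 and 3e-08).

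**Figure D5:**
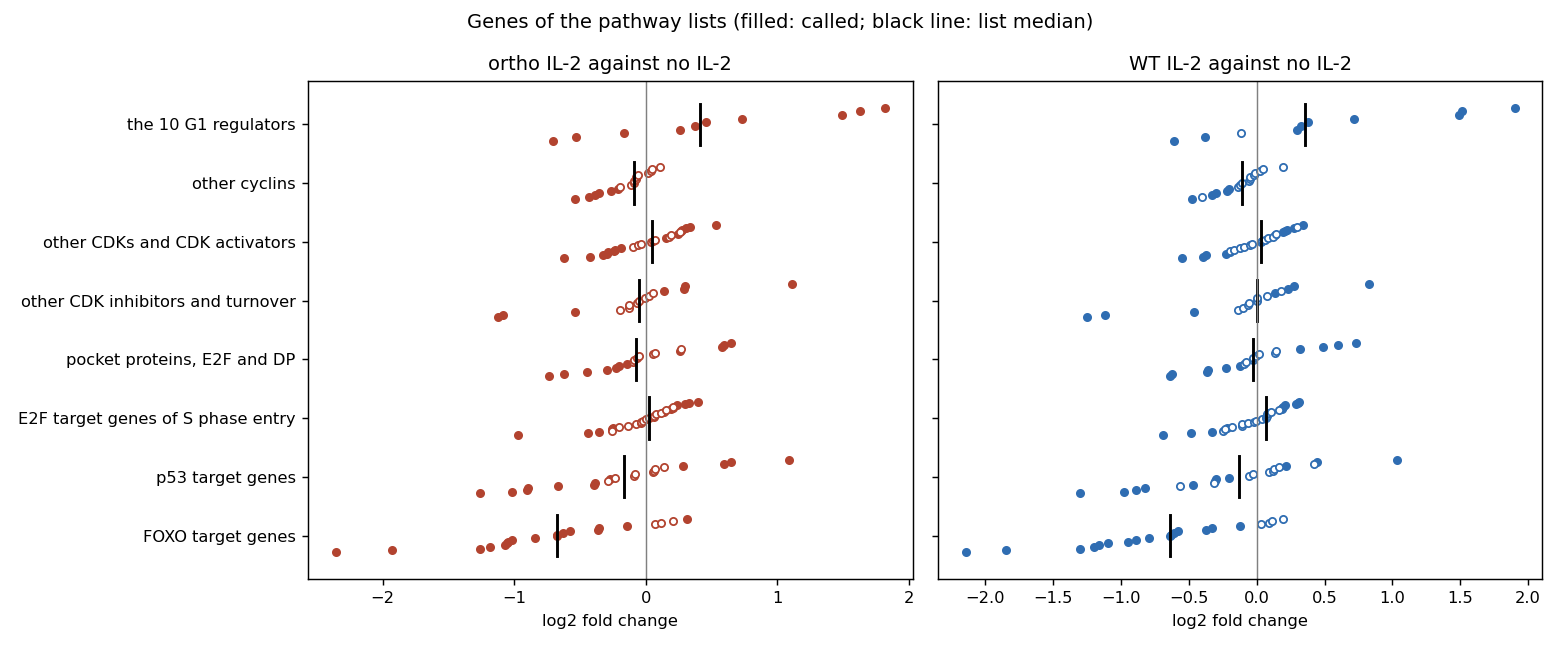
Log2 fold changes of the 10 regulators and of the genes in 7 related lists, filled where called, with a black line at each list's median; ortho IL-2 against no IL-2 on the left and WT IL-2 against no IL-2 on the right. The medians of the regulators lie at 0.42 and 0.35, those of the FOXO list at -0.68 and -0.64, and those of the other 6 lists between -0.16 and 0.07.

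The genes most like each member over the 9 libraries were found by the root mean square (RMS) difference of mean-centred log2 values, a description without a test that shares the same libraries and depth. For Ccnd2 these were Ahcyl2 (RMS 0.04) and Zscan29 (0.05), for Ccnd3 Sema4a (0.05) and Pglyrp2 (0.07), and for Cdk6 Fam19a3 (0.07) and Rexo2 (0.07). Cdkn1a was closest to Mtmr3 (0.02) and Sema4d (0.02), and Cdkn1b to Arrdc3 (0.05) and Rnf103 (0.05). Ccne2 was closest to Zfp935 and Lrif1 (0.03 each), Cdk4 to Rinl and Clstn1 (0.03 each), Cdkn2d to Klhl26 and Cnn2 (0.03 each), Cdkn2c to Rragc (0.02) and Drosha (0.03), and Ccne1 to 2310033P09Rik (0.04) and 0610007P14Rik (0.06). No member was among the nearest genes of another member.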

How the data were processed

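Messenger RNA was sequenced in 9 libraries, 3 per group. Each table deposited by the authors holds raw read counts and RPKM per RefSeq transcript, per the file headers. The submitters' processing notes name the mm10 build, bedtools 2.25.0, SAMtools 0.1.8, TopHat2, Bowtie2 and edgeR without their roles; which counter was used, and whether it read strand, is not given in the sources used here. The transcript with most reads over the 9 libraries stood for each symbol (3 members have several). The 10702 genes that reached an RPKM of 1 in 3 or more libraries were tested on counts by edgeR 4.0.16 (quasi-likelihood, R 4.3.3) with TMM scaling, group means as terms over all libraries, two-sided, with Benjamini-Hochberg adjustment and a threshold of 0.05. SEs and 95% intervals come from that fit. The fit was tested on simulated data. Alternatives used DESeq2 1.42.0, limma 3.58.1 on log2(RPKM + 1), other scalings and filters, covariates and left-out libraries; 1 of them, without the 2 libraries that stand apart, was chosen after seeing the data. The members and the gene lists were chosen with earlier results of these data known. Named genes are the members, a fixed set of related genes whatever their values and, per list, the 3 called genes with the smallest p in each comparison with no IL-2; the genes that overlap members were added later. One gene that this rule names is not reported here. Gene positions are those of GENCODE M21 and promoters those of RefSeq, both GRCm38. Precision is set by 16581628 to 58182823 reads in genes per library. Same-numbered libraries of different groups correlated from -0.757 to 0.548 in their deviations from group means.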

Additional observations from a re-analysis of the deposited data

How the results depend on the processing

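For each comparison with no IL-2, 20 alternatives were run per value, and over all results 749 of 840 values kept their direction and side of the threshold or, for counts, stayed within 1.5 times. Scaling by the RPKM divisor gave 5706 genes higher and 946 lower with ortho IL-2, 4630 and 895 with WT IL-2, and 1 member lower in each. limma on log2(RPKM + 1) gave 5599 and 922 with ortho IL-2, 4459 and 867 with WT IL-2, and 1 member lower in each. Both shift the median of all genes upward (0.29 and 0.25 with ortho IL-2, 0.22 and 0.19 with WT IL-2), and Cdkn2c reversed under both (0.11 and 0.11 with ortho IL-2; 0.10 and 0.10 with WT IL-2). With the outside-gene share as a covariate, ortho IL-2 gave 925 genes higher and 647 lower and WT IL-2 gave 1217 and 911, with 4 members higher and 0 lower in each; that share also separates the stimulated from the no IL-2 libraries, so the covariate and the treatment overlap. Leaving out 1 library gave 1 to 2 members lower with WT IL-2. The labels do not state whether same-numbered libraries are paired. Deviations from group means correlated from -0.757 to 0.548 for same-numbered libraries and from -0.707 to 0.684 for others, which cannot decide it. With the replicate block, ortho IL-2 gave 2846 genes higher and 2806 lower and WT IL-2 gave 2516 and 2273. Among members the block ended the call of Ccne1 with ortho IL-2 (0.25, edgeR adjusted p = 0.0637). In ortho IL-2 against WT IL-2, none of the following was called and the cause of each reversal was not tested. Ccnd2 (-0.0033 as reported) became 0.058 with the RPKM divisor and with limma, 0.013 with no filter, 0.0025 at an RPKM of at least 3, 0.00078 with all transcripts summed, 0.00077 with the 2 groups alone, 0.015 with the covariate, 0.045 with GC and length offsets, 0.045 with the block added to them, 0.036 without both libraries that stand apart, and ranged from -0.023 to 0.036 where libraries were left out. Cdkn1a (0.015 as reported) became -0.034 with GC and length offsets and -0.035 with the block added, and ranged from -0.016 to 0.056 with 1 library left out. Cdkn1b ranged from -0.19 to 0.0083 with 1 library left out, and Cdkn2c became 0.013 with the RPKM divisor and 0.011 with limma. Ccne1 had the fewest reads of the members, 120 in its shallowest library. The cause of the lost calls was not tested.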
